A study of Mus musculus with 12 samples.

Results

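The axon guidance genes of the semaphorin, plexin, neuropilin, Eph, ephrin, netrin and UNC5 families were measured in embryonic mouse brain after YAP overexpression or loss of Nf2. Members were the genes whose probe sets carry a single gene symbol that starts with Sema, Plxn, Nrp, Epha, Ephb, Efna, Efnb, Ntn or Unc5, or equals Dcc. Where a gene had several probe sets, the brightest on average across the 12 arrays stood for it. This gave 66 members among 17097 genes, from 131 probe sets. Of these, 62 belong to the guidance families, 33 as ligands (20 semaphorins, 7 ephrins and 6 netrins) and 29 as receptors (9 plexins, 2 neuropilins, 13 Eph receptors and 5 netrin receptors). The other 4 share only the letters of a symbol (Nrp, Plxna4os1, Unc50 and Unc5cl). They are counted among the 66 and left out of the families.

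The guidance families steer growing axons and migrating neurons by attraction and repulsion. Semaphorins bind plexins, with neuropilins as coreceptors for most secreted (class 3) semaphorins. Ephrins are membrane-bound and bind Eph receptor tyrosine kinases on neighbouring cells, where both partners can signal, and secreted netrins bind the receptors of the Dcc and UNC5 types. Many of these genes are also used outside axons, in progenitor adhesion, regional boundaries and blood vessel growth.

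Each of 4 groups held 3 arrays, and the genetic background was mixed in all of them. Embryos with TetO-YAP1;Nes-rtTA gave the YAP overexpression samples, E11.5 tissue of forebrain plus midbrain. In them rtTA from the Nestin promoter of neural progenitors drives YAP1-S127A under doxycycline. The YAP controls had Nes-rtTA alone. YAP is a transcriptional co-activator of TEAD factors that the Hippo pathway restrains. From E7.5 on, the dams ate food with 200 mg/kg of doxycycline. The Nf2 experiment compared E13.5 dorsal telencephalon of Nf2F/F;Emx1-Cre knockouts with that of Nf2F/+;Emx1-Cre controls. Those controls carry the Cre and keep 1 working copy of Nf2 in Emx1-Cre cells, and cells without the Cre keep Nf2 in both groups. Nf2 encodes Merlin, an upstream regulator of the Hippo kinases. The labels number the arrays of a group without saying that they came from separate embryos, so the p-values reflect the spread of these 12 samples, part of which may be technical.

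Values were log2 intensities on separate scales for each experiment, with array medians of 5.03 to 5.10 in the YAP experiment and 4.30 to 4.42 in the Nf2 experiment. Changes are log2 differences from the controls of the same experiment, and a gene was called at an adjusted p under 0.05 over all 17097 genes. Called genes numbered 1078 with YAP (456 higher and 622 lower) and 43 with Nf2 loss (35 higher and 8 lower). With each array's median subtracted the YAP calls split into 528 higher and 472 lower. The YAP total fell below 1078 by more than 1.5 times without YAP control replicate 1 (674) or 3 (529), or without overexpression replicate 1 (688) or 3 (678). The Nf2 total was 25 without Nf2 control replicate 2, 23 without control replicate 3 and 20 without knockout replicate 2, and 21 with the replicate number as a block. Ccn1 and Ccn2, widely used YAP target genes, rose by 1.93 and 2.50 with YAP and by 1.02 and 2.03 with Nf2 loss. Yap1 itself was 0.27 higher with overexpression (adjusted p = 0.0551), and Nf2 was 0.38 lower in the knockout with an adjusted p of 0.246. Cortical markers were bright in Nf2 controls (Eomes at 10.71 and Tbr1 at 9.13), and of the midbrain markers in YAP controls En2 was bright at 9.45, while En1, Pax5 and Lmx1b, at 4.23, 4.34 and 4.33, lay below the array median.

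With YAP overexpression, 7 guidance receptors and 2 ligands fell, and 1 of each rose. Of 66 members, 11 were called (16.7%, against 6.31% of all genes), 2 of them higher and 9 lower. The receptors Plxna2, Dcc, Ephb1, Epha5, Epha4, Nrp1 and Epha3 fell, with the semaphorins Sema5a and Sema6a, and the receptor Epha2 and the ligand Sema3b rose. By role, 8 of 29 receptors (27.6%) and 3 of 33 ligands (9.09%) were called, and no test compared these shares. The median change was -0.07 over receptors, -0.03 over ligands, -0.06 over all 66 members and -0.01 over all genes. The background was 2.67% of all genes called higher and 3.64% called lower. At an unadjusted p under 0.05 there were 21 members (31.8%, against 19.6% of all genes), and for 22 the 2 groups shared no range of values (33.3%, against 21.3%). In whole tissue, fewer cells of a type and less RNA per cell cannot be told apart. The count of 11 was 6 without YAP control replicate 3, 7 without overexpression replicate 1, and 3 (Epha2, Epha3 and Sema6a) in a fit on the 6 arrays of this experiment alone. Most members stayed below the threshold, and the uncalled changes ran from -0.39 for Sema3a to 0.41 for Efnb1.

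**Figure D1:**
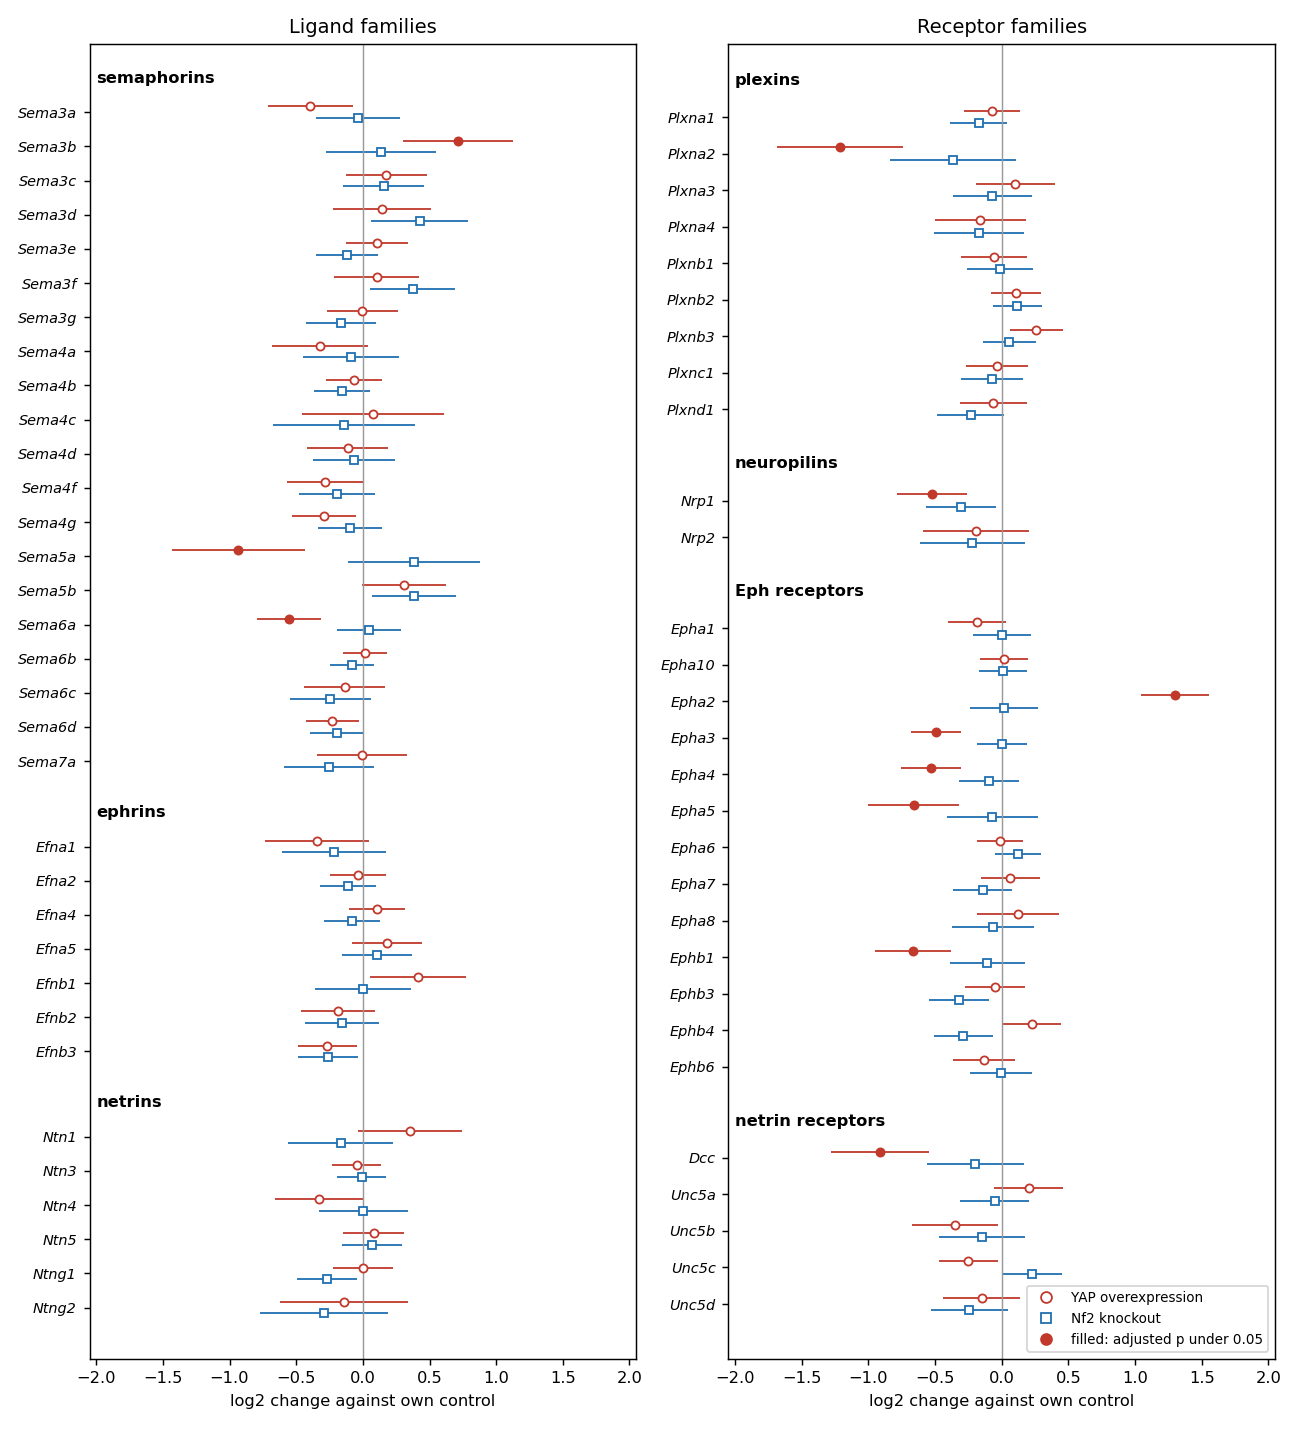
Log2 change of each of the 62 family members against the controls of its own experiment, ligands on the left and receptors on the right, with 95% confidence intervals from the fit. Circles are YAP overexpression and squares Nf2 knockout, and filled symbols passed an adjusted p of 0.05. The 11 filled symbols are all circles, from -1.21 for Plxna2 to 1.30 for Epha2.

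Epha2, an Eph receptor tyrosine kinase that binds ephrin-A ligands, rose most among the members. Its control arrays read 5.78, 5.73 and 5.86, and the overexpression arrays read 7.04, 7.32 and 6.91. Every overexpression array lay above every control array by more than the whole spread within either group. The change was 1.30 (SE 0.12, n = 3 against 3, 95% interval 1.05 to 1.55), or 2.46-fold, with an adjusted p of 7.10e-05. It remained called under every setting tried, as did Epha3, the only other member of which that was true. A single probe set measured Epha2.

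The promoters of Epha2, Epha3 and Plxna2 are shown because Epha2 rose most, Plxna2 fell most and Epha3 was the fall called under every setting. The sequences are from RefSeq on GRCm38.p6, run 5′ to 3′ on the gene's strand from 250 bases before the start of transcription to 50 bases after it, and capitals mark matches to the core motif of TEAD factors, GGAATG or its reverse complement CATTCC. The windows lie at chr4:141300971-141301270 on the + strand for Epha2, at chr16:63864126-63864425 on the - strand for Epha3 and at chr1:194619579-194619878 on the + strand for Plxna2.
Epha2: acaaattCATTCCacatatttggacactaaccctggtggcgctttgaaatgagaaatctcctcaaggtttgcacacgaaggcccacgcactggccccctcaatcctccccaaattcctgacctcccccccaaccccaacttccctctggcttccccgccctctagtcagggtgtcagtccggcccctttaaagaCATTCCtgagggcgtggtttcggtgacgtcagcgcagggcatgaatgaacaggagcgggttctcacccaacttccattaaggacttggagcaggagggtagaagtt
Epha3: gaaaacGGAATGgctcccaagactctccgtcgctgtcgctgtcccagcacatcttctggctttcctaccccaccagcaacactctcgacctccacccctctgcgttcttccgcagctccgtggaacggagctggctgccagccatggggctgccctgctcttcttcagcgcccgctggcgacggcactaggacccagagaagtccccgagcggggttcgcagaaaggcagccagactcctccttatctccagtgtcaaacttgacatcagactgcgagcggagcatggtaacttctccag
Plxna2: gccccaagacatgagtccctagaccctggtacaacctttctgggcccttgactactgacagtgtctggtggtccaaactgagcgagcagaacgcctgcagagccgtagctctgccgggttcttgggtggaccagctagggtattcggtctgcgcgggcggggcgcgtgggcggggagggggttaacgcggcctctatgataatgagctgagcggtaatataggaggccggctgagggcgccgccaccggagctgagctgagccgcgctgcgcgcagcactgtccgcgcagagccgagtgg
The Epha2 window holds CATTCC at bases 8 and 195, counted from 1 at the 5′ end, and the Epha3 window holds GGAATG at base 7. No match lies in the Plxna2 window, nor in those of Epha4, Epha5, Ephb1, Nrp1 and Sema5a. No window is given here for the called members Dcc, Sema6a and Sema3b. Windows were listed for 55 of the 66 members, as 68 promoters, and 9 of these 68 (13.2%) held a match on either strand, against 14.7% of all 32851 promoters. At least 2 matches, as in the Epha2 window, were found in 1.33% of all promoters. A proneural E-box, CAGATG or CATCTG, was in 5 of the 68 (7.35%) and in 17.2% of all promoters. A match describes the letters only, and no binding was measured here.

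Of 13 Eph receptors, 5 were called. Epha3, Epha4, Epha5 and Ephb1 fell, while Epha2 rose. Epha3 and Epha5 bind ephrin-A ligands, Ephb1 binds ephrin-B ligands, and Epha4 binds both classes. Epha3 read 10.43, 10.41 and 10.48 in controls and 9.97, 10.06 and 9.81 with overexpression, a change of -0.49 (SE 0.09, adjusted p = 0.0055). Epha4 read 9.25, 9.28 and 9.28 against 8.60, 8.99 and 8.63, a change of -0.53 (SE 0.10, adjusted p = 0.0103). The groups of both genes were apart, and overexpression replicate 2 lay nearest to the controls in each. Ephb1 read 7.94, 7.75 and 8.20 in controls and 7.29, 7.54 and 7.06 with overexpression, a change of -0.67 (SE 0.13, adjusted p = 0.0103). Epha5 read 7.71, 7.85 and 8.23 against 7.29, 7.58 and 6.94, a change of -0.66 (SE 0.16, adjusted p = 0.0265). Their groups did not overlap either, but Epha5 was not called without YAP control replicate 2 (adjusted p = 0.0504) or 3 (0.105), or without overexpression replicate 1 (0.068) or 3 (0.0874). The other 8 Eph receptors ranged from -0.18 (Epha1) to 0.23 (Ephb4), and Ephb4, known from vein endothelium, had arrays apart (7.63, 7.70 and 7.44 against 7.82, 7.87 and 7.76) with an adjusted p of 0.243.

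**Figure D2:**
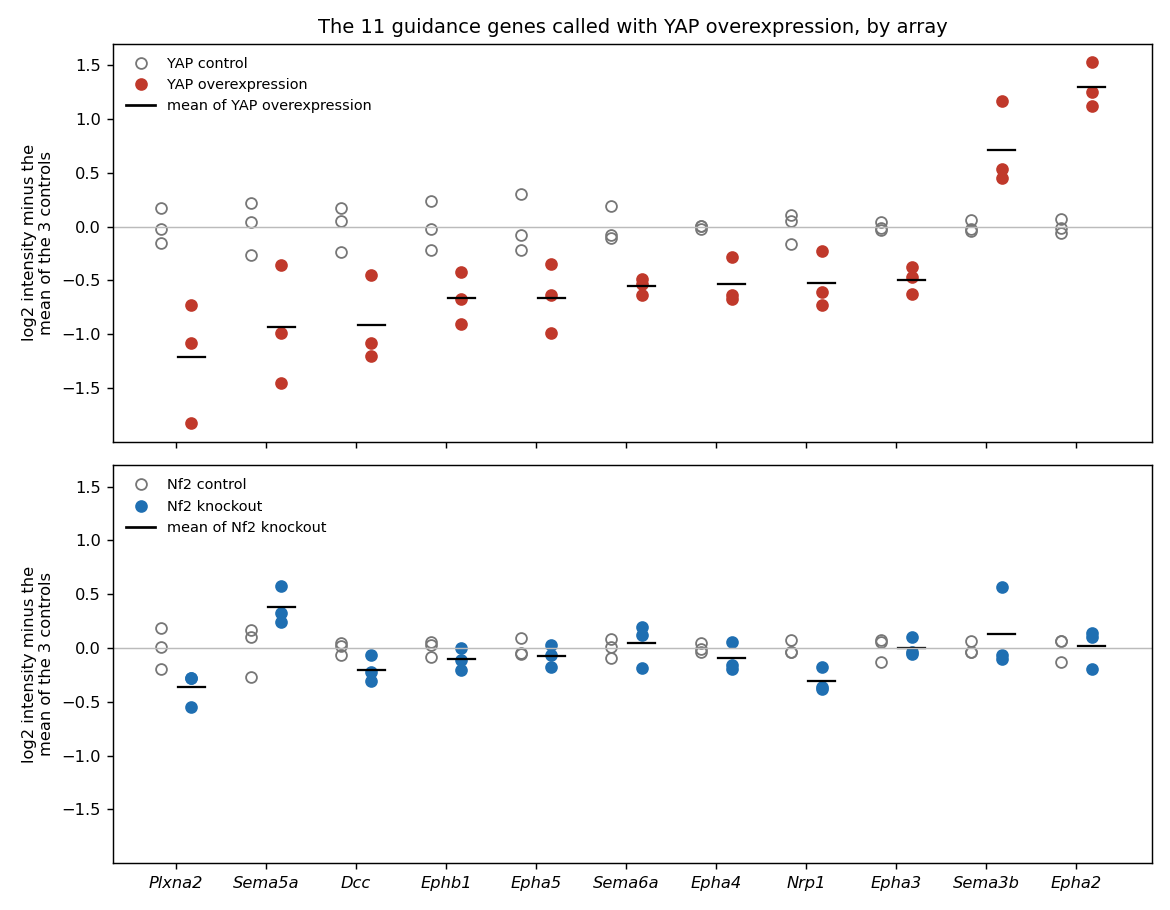
Log2 intensity of the 11 members called with YAP in each array, minus the mean of the 3 controls of the same experiment (vertical axis), for the YAP experiment above and the Nf2 experiment below. Open points are controls, filled points overexpression or knockout arrays, and lines their means, which run from -1.21 for Plxna2 to 1.30 for Epha2 above and from -0.37 for Plxna2 to 0.38 for Sema5a below.

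Plxna2, a plexin that transduces class 3 and class 6 semaphorin signals, fell most of all members. Control arrays read 8.91, 8.78 and 9.10, and overexpression arrays 7.85, 8.20 and 7.10. All 3 overexpression arrays were below the lowest control, and they differed from each other more than the controls did. The change was -1.21 (SE 0.22, 95% interval -1.69 to -0.74), or 2.32-fold lower, with an adjusted p of 0.00677. The 4 probe sets of the gene gave changes between -1.31 and -0.71. The remaining 8 plexins were not called and ran from -0.16 (Plxna4) to 0.26 (Plxnb3). Nrp1, a neuropilin that serves as coreceptor for class 3 semaphorins and for VEGF in vessels, read 9.42, 9.63 and 9.69 in controls and 8.97, 9.35 and 8.85 with overexpression. Its change was -0.52 (SE 0.12, adjusted p = 0.0243), and its groups did not overlap. Nrp1 was not called without YAP control replicate 2 (adjusted p = 0.0704) or 3 (0.098), nor without overexpression replicate 1 (0.0823) or 3 (0.0889). Nrp2, the other neuropilin, changed by -0.19 and was not called (adjusted p = 0.636). Its other probe set, with a mean of 7.09, changed by -0.48 (unadjusted p = 0.0088 by limma over all probe sets). With Nf2 loss that probe set changed by -0.40 (unadjusted p = 0.0243).

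Dcc, the attractive netrin receptor of commissural axons, was the only netrin receptor called, although no test compared it with the others. It read 11.04, 10.75 and 11.16 in controls and 9.90, 10.53 and 9.78 with overexpression. All overexpression arrays were lower than all controls, and replicate 2 was again the nearest to them. The change was -0.91 (SE 0.17, 95% interval -1.28 to -0.55), or 1.88-fold lower, with an adjusted p of 0.00745. The UNC5 receptors, which mediate repulsion from netrin, changed by -0.35 (Unc5b), -0.25 (Unc5c), -0.15 (Unc5d) and 0.20 (Unc5a), and none was called. All overexpression arrays were also below all controls for Unc5b and Unc5c (unadjusted p = 0.0357 and 0.0315 by limma). For Unc5a they were all above. None of the 6 netrins was called. Netrin-1 (Ntn1), the secreted ligand of Dcc, had the largest netrin change, with 9.82, 9.75 and 9.90 in controls and 10.13, 10.49 and 9.91 with overexpression. Overexpression replicate 3 barely exceeded the highest control, and the change of 0.35 had an interval of -0.04 to 0.75 (adjusted p = 0.315).

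Among ligands, 3 of 20 semaphorins were called. Sema5a, a transmembrane semaphorin with thrombospondin repeats, read 6.64, 6.16 and 6.46 in controls and 5.43, 6.06 and 4.97 with overexpression. The groups were apart, although overexpression replicate 2 came close to the lowest control. Its change was -0.93 (SE 0.23), or 1.91-fold lower, with an adjusted p of 0.0313. It was not called without YAP control replicate 1 (adjusted p = 0.112) or 3 (0.0996), or without overexpression replicate 1 (0.0884) or 3 (0.0982). Sema6a, a transmembrane semaphorin that binds class A plexins such as Plxna2, read 7.32, 7.29 and 7.59 against 6.91, 6.87 and 6.76, all lower than the controls. It fell by 0.55 (SE 0.11, adjusted p = 0.0116) and missed the threshold only without YAP control replicate 3 (adjusted p = 0.0525). Sema3b, a secreted class 3 semaphorin, rose from 4.41, 4.32 and 4.31 to 4.88, 5.51 and 4.80, a change of 0.72 (SE 0.19, adjusted p = 0.0447). These arrays did not overlap, but the means of both groups (4.35 and 5.06) lay below the control array median of 5.08, so the signal was dim. The 2 other probe sets of Sema3b changed by 0.13 and 0.23. Sema3b was called without overexpression replicate 3 or any 1 Nf2 knockout array. It was not called without any other single array of the 12, with adjusted p-values between 0.0625 and 0.128.

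The other 17 semaphorins were not called. Their changes ran from -0.39 (Sema3a) to 0.31 (Sema5b), and 3 further ones, Sema3a, Sema4g and Sema6d, had an unadjusted p under 0.05, all lower. None of the 7 ephrins was called. Ephrin-B1 (Efnb1), a ligand of EphB receptors with a gene on the X chromosome, had the largest ephrin change, from 7.94, 8.50 and 7.74 to 8.55, 8.67 and 8.20. Its groups overlapped because control replicate 2 exceeded overexpression replicate 3. The change was 0.41 (95% interval 0.05 to 0.77, adjusted p = 0.186), and without control replicate 2 it was 0.63 and called (adjusted p = 0.0171). The 2 other probe sets of Efnb1 changed by -0.35 and 0.01, so the direction of this gene was not the same over its probe sets.

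Of the 66 members, 39 had more than 1 probe set, at most 4. Among the 11 called members, Epha3 was the only one with probe sets of both signs. The 3 probe sets of Epha4 gave -0.53 to -0.37, and the 3 of Nrp1 gave -0.52 to -0.32. Dcc was measured at -0.91 and -0.73 by 2 bright probe sets and at -0.07 by another with a mean of 4.27. The dim probe sets of Sema5a gave -0.05 and -0.01, beside -0.93 and -0.63 for the brighter ones. Of the Epha3 probe sets, the brighter 3 changed by -0.49, -0.58 and -0.26, and the dimmest, with a mean of 3.78, by 0.06. With the mean of all probe sets of a gene, Nrp1, Sema3b and Sema5a changed by -0.45, 0.36 and -0.41 and were not called (adjusted p = 0.0865, 0.0865 and 0.0829), which left 8 of the 11.

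**Figure D3:**
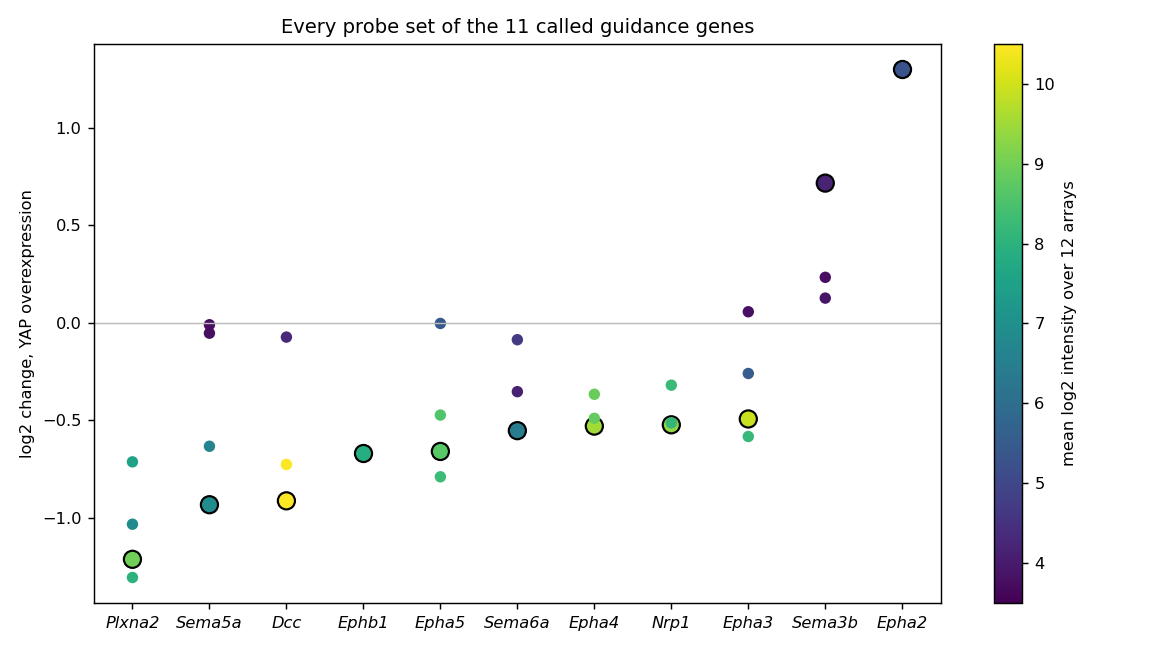
Log2 change with YAP overexpression (vertical axis) of every probe set of the 11 called members (horizontal axis), coloured by mean log2 intensity over 12 arrays, with the probe set that stood for the gene outlined. The dim Dcc probe set at a mean of 4.27 changed by -0.07, while the bright ones, at means of 10.47 and 10.46, changed by -0.91 and -0.73.

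Markers of neurons and of committed progenitors moved with the members that fell. Of 14 neuronal markers measured, 8 fell and none rose, against 3.64% of all genes called lower and 2.67% called higher. The uncalled ones ran from -0.86 (Syt1) to 0.07 (Nefm). The mean level of the 14 was 9.36 to 9.69 in control arrays and 8.76 to 9.23 with overexpression. Intermediate progenitor markers fell in 5 of 6 cases, with means of 9.53 to 9.86 against 8.74 to 9.17. Of the ventral telencephalon markers, 9 of 10 fell (6.65 to 7.24 against 5.48 to 5.81), and all 5 dorsal telencephalon markers fell (8.50 to 8.79 against 7.68 to 7.91). Eomes is on both the dorsal telencephalon and the intermediate progenitor lists. Radial glia markers were mixed, with 2 risen and 1 fallen of 8 and means of 9.86 to 9.98 against 9.79 to 10.04. The part of these cell types in the fall of the guidance receptors was not tested. None of 10 endothelial markers was called with YAP, and their means overlapped at 6.92 to 7.02 in controls and 6.88 to 7.08 with overexpression. Overexpression replicate 2 was the highest of the 3 overexpression arrays for 8 of the 9 members that fell, and replicate 3 was the lowest for 8. The neuronal markers averaged 8.85, 9.23 and 8.76 in overexpression replicates 1, 2 and 3. The intermediate progenitor list (9.04, 9.17 and 8.74) and the dorsal telencephalon list (7.88, 7.91 and 7.68) had the same order. Replicate 2 was also the highest for the radial glia (9.79, 10.04 and 9.82) and endothelial lists (6.88, 7.08 and 6.94), but there replicate 1 was the lowest. For the erythroid list replicate 2 was the lowest (12.01, 11.91 and 12.26).

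**Figure D4:**
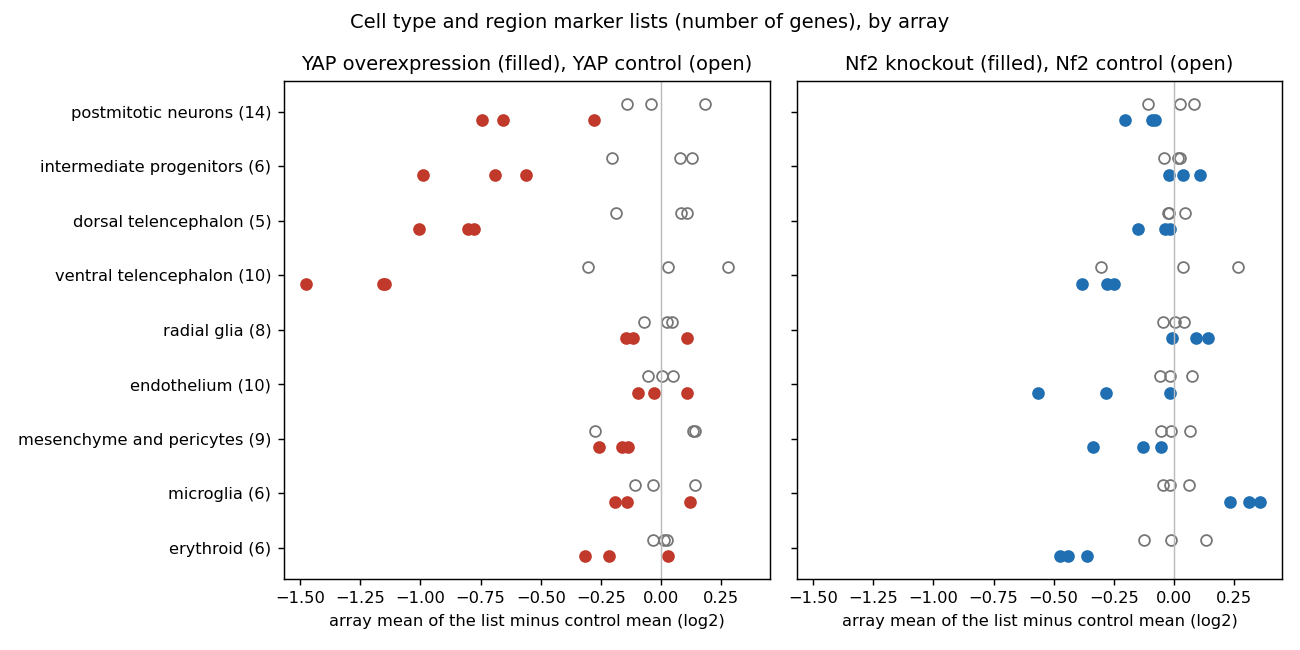
Mean log2 intensity of each marker list in each array minus the mean of the controls of the same experiment (horizontal axis), with the number of genes in brackets, open points for controls and filled points for overexpression (left) or knockout (right). On the left all overexpression arrays lie below all controls for the neuronal, intermediate progenitor, dorsal and ventral telencephalon lists, and on the right the endothelial points spread to lower values in the knockouts.

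Other genes of guidance signalling were listed from knowledge of the pathways, and 49 of 54 were measured. With YAP, 1 rose and 8 fell (18.4% called, against 6.31% of all genes). The median change was -0.19, against -0.01 over all genes. Among those that fell were Draxin, a netrin-binding guidance protein (-0.62), the repulsive guidance molecule Rgmb (-0.71), the collapsin response proteins Dpysl3 and Dpysl4 (-0.65 and -0.57), the kinase Pak3 (-0.68), the Rac exchange factor Tiam1 (-0.27) and the Cdk5 activator Cdk5r1 (-1.03). Ptpn13, a phosphatase, was the gene that rose, by 0.47 (adjusted p = 0.0177).

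With Nf2 loss, no member was called (0 of 66, against 0.252% of all genes, by limma; the background was 0.205% called higher and 0.0468% called lower). At an unadjusted p under 0.05 there were 9 members (13.6%, against 6.24% of all genes), 4 higher (Sema3d, Sema3f, Sema5b and Unc5c) and 5 lower (Efnb3, Ephb3, Ephb4, Nrp1 and Ntng1), and this number ran from 3 to 13 over the alternative settings. Changes ran from -0.37 (Plxna2) to 0.43 (Sema3d), with a median of -0.08 against 0.00 for all genes. In the knockout 46 of the 66 members were lower (69.7%, against 50.9% of all genes). With the replicate number as a block, although the labels state no pairing, 0 members were called and 10 had an unadjusted p under 0.05. The groups did not overlap for 13 members (19.7%, against 12.7% of all genes), 4 higher and 9 lower. Ptpn13 was the one called gene of the wider pathway list, with a rise of 0.56 (adjusted p = 0.0469).

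Among receptors with Nf2 loss, Plxna2 read 9.64, 9.85 and 10.02 in controls and 9.29, 9.56 and 9.56 in knockouts. These did not overlap, and the change of -0.37 had an interval of -0.84 to 0.11 (adjusted p = 0.897). Nrp1 read 9.48, 9.48 and 9.59 against 9.15, 9.14 and 9.34, also without overlap, a change of -0.31 (95% interval -0.57 to -0.04, adjusted p = 0.717). Its 3 probe sets gave -0.37 to -0.31. Ephb3, a receptor of ephrin-B ligands, read 6.62, 6.59 and 6.43 against 6.26, 6.13 and 6.29, a change of -0.32 (95% interval -0.54 to -0.10, adjusted p = 0.533). Every Ephb3 knockout array was below every control. Ephb4 read 6.14, 6.07 and 6.17 against 5.91, 6.0 and 5.61, a change of -0.29 (adjusted p = 0.634). The repulsive netrin receptor Unc5d read 6.71, 6.87 and 7.09 against 6.36, 6.78 and 6.80, with overlap and a change of -0.24 (adjusted p = 0.877). All 10 endothelial markers were lower in knockouts, and none was called. Their mean was 6.06 to 6.19 in controls and 6.10, 5.84 and 5.55 in knockout replicates 1, 2 and 3. Endothelium also uses Nrp1 and Ephb4. Of the knockout arrays, replicate 3 was the highest for Nrp1 and the lowest for Ephb4. Erythroid markers averaged 9.14 to 9.40 in controls and 8.79 to 8.90 in knockouts, microglial markers 5.47 to 5.58 and 5.75 to 5.88, and neuronal markers 8.90 to 9.09 and 8.80 to 8.93. The part of these cell types in the Nf2 changes was not tested.

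Among ligands with Nf2 loss, Sema3d, a secreted semaphorin, read 3.76, 3.60 and 3.69 in controls and 4.42, 3.60 and 4.31 in knockouts. Knockout replicate 2 equalled the lowest control, and both group means lay below the array median. The change was 0.43 (95% interval 0.06 to 0.79, adjusted p = 0.710), and without knockout replicate 2 it was 0.68 and called (adjusted p = 0.0224). The other Sema3d probe set, dimmer with a mean of 3.66, changed by 0.007. The transmembrane ligand Efnb3 read 7.54, 7.79 and 7.94 against 7.51, 7.60 and 7.37, a change of -0.26 (95% interval -0.49 to -0.04, adjusted p = 0.709). Its groups overlapped, since knockout replicate 2 exceeded control replicate 1. Ntng2, a membrane-anchored netrin relative, had the largest netrin change, at 6.18, 6.17 and 6.01 against 6.09, 6.11 and 5.29. That change of -0.29 rested on knockout replicate 3, since the other arrays lay between 6.01 and 6.18 (adjusted p = 0.930). The class 5 semaphorins were both higher by 0.38 with arrays apart, Sema5b at 7.39, 7.32 and 7.41 against 7.70, 7.87 and 7.70 (adjusted p = 0.682) and Sema5a at 7.36, 7.80 and 7.73 against 7.96, 7.87 and 8.21 (adjusted p = 0.897).

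**Figure D5:**
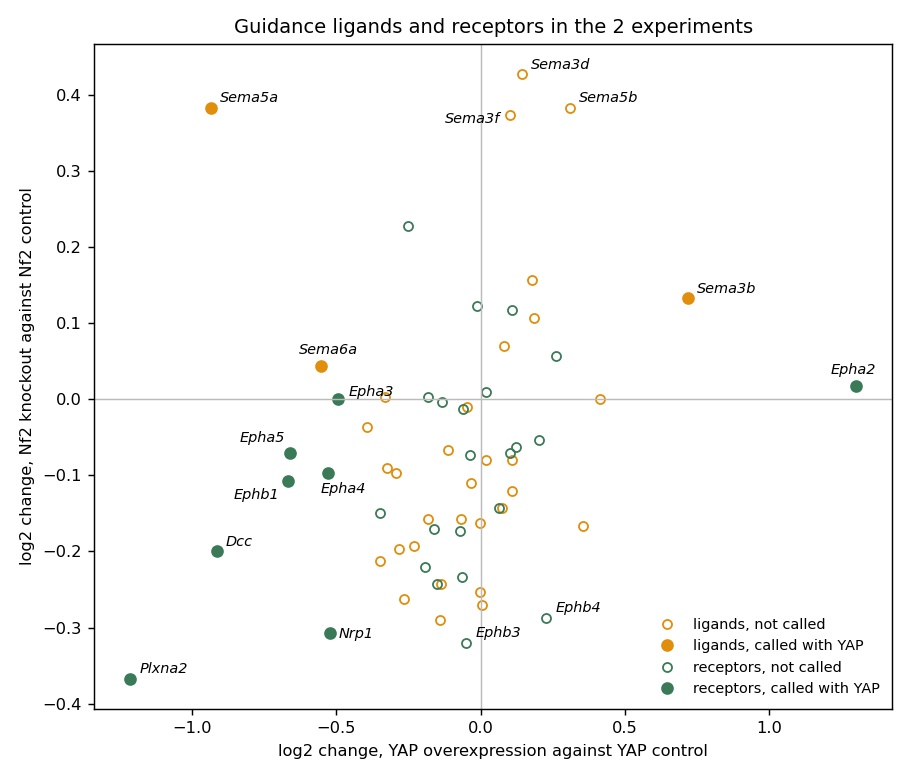
Log2 change of each of the 62 family members with YAP overexpression (horizontal axis) and with Nf2 knockout (vertical axis), ligands and receptors in different colours, filled where called with YAP. Epha2 stands at 1.30 and 0.02, Sema5a at -0.93 and 0.38, and Plxna2 at -1.21 and -0.37.

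The difference between the YAP and Nf2 effects was called for 1 member, Epha2 (1.28, SE 0.16, adjusted p = 0.00505, against 0.281% of all genes called). At an unadjusted p under 0.05 the difference held 11 members (16.7%, against 10.1% of all genes). In the Nf2 experiment, Epha2 read 4.17, 4.17 and 3.98 in controls and 4.21, 4.25 and 3.91 in knockouts. These arrays overlapped and lay below the array median, and the change of 0.02 had an interval of -0.24 to 0.27. Tissue, age and manipulation all differed between the experiments and cannot be told apart. Over all genes, the highest and lowest changes with Nf2 loss were those of the sex-chromosome genes Xist (2.61) and Eif2s3y (-1.94), neither of them called. The part of embryo sex was not tested. For Sema5a, the effects were opposite in sign and differed by -1.32, with an adjusted p of 0.152 that became 0.0134 without YAP overexpression replicate 2. Dcc and Epha4 were also called in the difference without that array (-0.94 and -0.56, adjusted p = 0.0231 and 0.0487). Epha3, at 9.56, 9.76 and 9.75 against 9.65, 9.63 and 9.79 in the Nf2 experiment, changed by 0.00 there (95% interval -0.19 to 0.19), and its difference of -0.49 had an adjusted p of 0.151, or 0.0306 with a trended, robust prior. Dcc changed by -0.20 with Nf2 loss, from 10.54, 10.56 and 10.45 to 10.21, 10.45 and 10.29 (adjusted p = 0.944). Arrays were apart in both experiments for 4 of 66 members (6.06%, against 3.88% of all genes). Nrp1 and Plxna2 were lower in both, and Ephb4 and Sema5a had changes of opposite sign.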

How the data were processed

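RNA from 12 samples was measured on Affymetrix arrays, made from 100 ng of total RNA. The authors deposited log2 intensities for 45037 probe sets, to 2 decimals. Per the submitters' processing notes, RMA, Affymetrix Expression Console 1.1 and Partek 6.5 were used, with no role stated. Symbols came from the platform table (28898 probe sets with 1 gene, 551 with several, which were left out).

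Limma 3.58.1 in R 4.3.3 fitted 4 group means to all 12 arrays (8 residual and 4.096 prior degrees of freedom), with Benjamini-Hochberg adjustment over 17097 genes and two-sided p-values. With 3 arrays a group, an exact permutation p is never under 0.1, so that test was not run. The number of arrays limits the precision. Members, marker lists and pathway lists were chosen with earlier results of these data known. Arrays are given for each called member and, where a family had none called in a comparison, for its largest change, and further genes were named after their values were seen. Equal replicate numbers had residual correlations of 0.271, 0.212 and 0.207 in the Nf2 experiment, and of 0.0971, -0.195 and -0.204 in the YAP experiment. Unequal numbers gave -0.228 to -0.000108 in the Nf2 experiment and up to 0.304 in the YAP experiment. The labels state no pairing, and these correlations cannot establish one. Tested on simulated data for YAP (17097 genes, 200 of them changed), the fit recovered 56.6% of genes changed by 0.5 and 95.1% of those changed by 1. Of the calls, 5.93% were false. Each simulated gene had 1 spread for all 4 groups, so these figures do not cover genes whose spread differed between groups.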

Additional observations from a re-analysis of the deposited data

Results flagged for a closer look

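Epha2 was the 1 member whose YAP and Nf2 effects differed by a test of the difference itself. The log2 change with YAP overexpression was 1.28 larger than with Nf2 loss (1.30 against 0.02, adjusted p = 0.00505 by limma, higher in 3 of 3 overexpression arrays). The probe set was dim in the Nf2 experiment, with group means of 4.11 and 4.12 below the control array median of 4.37, where the size of a change is uncertain.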

How the results depend on the processing

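Guidance members called with YAP numbered 11, against 7 with the replicate block, 3 in a fit on the 6 arrays of the experiment and 6 to 11 with 1 array left out. All genes called with YAP came to 689 with the block, 361 on 6 arrays and 529 to 1241 with 1 array left out. For Nf2, all genes called came to 21 with the block, 25 on 6 arrays, 67 with array weights and 20 to 50 with 1 array left out, and members called to 0 to 1 with 1 array left out. Members called in the difference numbered 2 with a trended, robust prior and 1 to 4 with 1 array left out. Fewer samples enter the leave-one-out and 6-array fits. The main fit gave each gene 1 spread over both experiments, so its YAP intervals may be too narrow where the YAP spread was wider. The standard deviations of Plxna2 in YAP control and overexpression arrays were 0.16 and 0.56, against 0.19 and 0.16 in Nf2 control and knockout arrays. For Dcc they were 0.21 and 0.40 against 0.06 and 0.12, but for Sema6a 0.17 and 0.08 against 0.09 and 0.20. The part of this in the lower counts was not tested, nor were other causes. The block left out Epha5, Ephb1, Sema3b and Sema5a with YAP (adjusted p = 0.0811, 0.059, 0.0546 and 0.0734) and changed no Nf2 member call. The 18 named genes gave 376 alternative values with YAP, but only values of the 11 called genes could lose a call. Of the 376, 37 lost their call, 1 gained one and 0 reversed. Of the 11 called genes, 6 stayed called with any 1 array left out and 2 in every setting. With Nf2, 1 of 376 gained one. Quantile normalization, array medians subtracted and no cross-hybridising probe sets kept 11 members called, and a mean of at least 5 kept 10. The difference was not fitted on 6 arrays, which hold 1 experiment. Of the members, 17 (YAP) and 19 (Nf2) were above the array median in neither group.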
